A study of Mus musculus with 6 samples.

Results

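The genes described here encode lysosomal hydrolases, the lysosomal proton pump and the core autophagy machinery, together with the transcription factors that control them. They were chosen by symbol from a list of 44, of which 43 were measured and passed the low-value filter, out of 12389 genes measured and 12363 tested. Ctss was not analysed here. The RNA came from 6 cultures of primary vascular smooth muscle cells grown out of explants of mouse thoracic aorta, at passage 6 or below and with no treatment. There were 3 wild-type (WT) cultures and 3 from mice with a smooth muscle-specific knockout of LRRC8A (KO), the subunit without which volume-regulated anion channels do not form. The design text calls them independent biological replicates. Neither the transgene that drives the deletion nor the ages of the mice could be taken from the labels. Groups follow the sample titles, because the genotype field gives wild type for every sample.

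Lysosomes are acidic organelles in which hydrolases break down proteins, glycans and lipids that arrive by endocytosis or autophagy. The vacuolar ATPase (V-ATPase) pumps protons into them, and autophagosomes, membranes marked by LC3 and GABARAP proteins, deliver cytoplasmic cargo. Many of these genes share a short promoter element of the E-box type, read by the transcription factors TFEB and TFE3, which enter the nucleus when mTORC1 at the lysosome surface is inactive. In the aortic wall, cathepsins and the sialidase complex of NEU1, CTSA and a splice form of the GLB1 gene product are known for their part in elastin turnover and assembly.

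The E-box core CACGTG, which is its own reverse complement, is shown in 8 members, those with the longer form TCACGTGA and the glycosidase genes Glb1 and Naglu, chosen as examples from the proton pump, proteases, glycosidases and calcium channel. RefSeq promoter windows (GRCm38.p6, 250 bases before to 50 after each start) were at hand for 36 of the 43 members. CACGTG lay in the window of 13 of those 36 (36.1%), against 7.15% of all 32851 windows and 12.1% of the 9043 tested genes with one. The longer form TCACGTGA, which contains the core, lay in 6 of 36 (16.7%), against 0.974% of all windows and 2.36% of those tested genes. The lines below give 30 bases each in the direction of the gene, with CACGTG in capitals. The first 6 hold TCACGTGA.
Gla, chrX:134601182-134601211, minus strand, 194 bases before the start: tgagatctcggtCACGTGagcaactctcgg
Mcoln1, chr8:3500462-3500491, plus strand, 45 bases before: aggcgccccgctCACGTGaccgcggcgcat
Ctsd, chr7:142387908-142387937, minus strand, 98 bases before: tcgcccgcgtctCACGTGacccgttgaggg
Ctsa, chr2:164833749-164833778, plus strand, 12 bases before: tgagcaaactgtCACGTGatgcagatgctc
Atp6v0d1, chr8:105566050-105566079, minus strand, 3 bases before: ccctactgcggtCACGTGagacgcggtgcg
Atp6v1a, chr16:44139373-44139402, minus strand, 131 bases before: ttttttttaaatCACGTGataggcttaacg
Glb1, chr9:114401018-114401047, plus strand, 48 bases before: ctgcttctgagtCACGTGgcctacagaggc
Naglu, chr11:101070009-101070038, plus strand, 73 bases before: caaccttcaggtCACGTGgcccgaggtcgg
The other 5 with the core were Atg5, Atg7, Ctsl, Gaa and Lamp1. The Atg7 window, chr6:114670846-114671145, lies inside the gene and not at the start of its span. Ctsa also has a window at the start of its span, and that window holds no CACGTG. A match of letters is a description and not a measured binding site. Many of these genes are known to share the element, as said above, so its share among them is no result of these cultures.

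Values are reads per gene after scaling for each library, as deposited, called scaled reads here. Where 3 values follow each other for a genotype, they stand in the order of replicates 1, 2 and 3. Differences are log2(value + 2), KO minus WT, from limma, a linear model fitted across all genes, and they understate the change of low genes. The estimated depth was 31.01 to 47.9 M reads per library. Lrrc8a had 1221 to 2578 scaled reads in the WT cultures and 506 to 868 in the KO cultures, without overlap. Of the smooth muscle markers, Acta2, Myh11, Tagln, Cnn1, Smtn and Lmod1 were measured, while Myocd and Des were not analysed here. Their summed level was 16520, 25282 and 205102 scaled reads in WT against 31498, 32534 and 106017 in KO, so replicate 3 stood apart in both genotypes. By gene, 4 of the 6 were below 0 in KO against WT. These were Myh11 at -2.63 (SE 1.16), Lmod1 at -2.46 (SE 1.37), Cnn1 at -1.355 (SE 1.80) and Smtn at -0.26 (SE 0.19). Above 0 were Tagln at 0.56 (SE 1.23) and Acta2 at 0.14 (SE 1.02).

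Across the 43 members, 35 had a log2 fold change below 0, or 81.4% of them against 49.6% of all genes tested. Their median was -0.26, where that of all genes was 0.00. The deviation was widest among the enzymes that trim glycans from glycoproteins and glycolipids and in the lysosomal glycoprotein gene Creg1. The medians were nearer 0 for the autophagy genes (-0.09) and for the group of Tfeb, Tfe3 and Mcoln1 (0.01). The median of the members was -0.25, -0.25 and -0.45 in the pairs of same-numbered cultures 1, 2 and 3. In all 3 pairs, 20 members were lower in KO, or 46.5% where 15.0% of all genes were, and 1, Npc2, was higher, where 15.7% of all genes were.

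**Figure D1:**
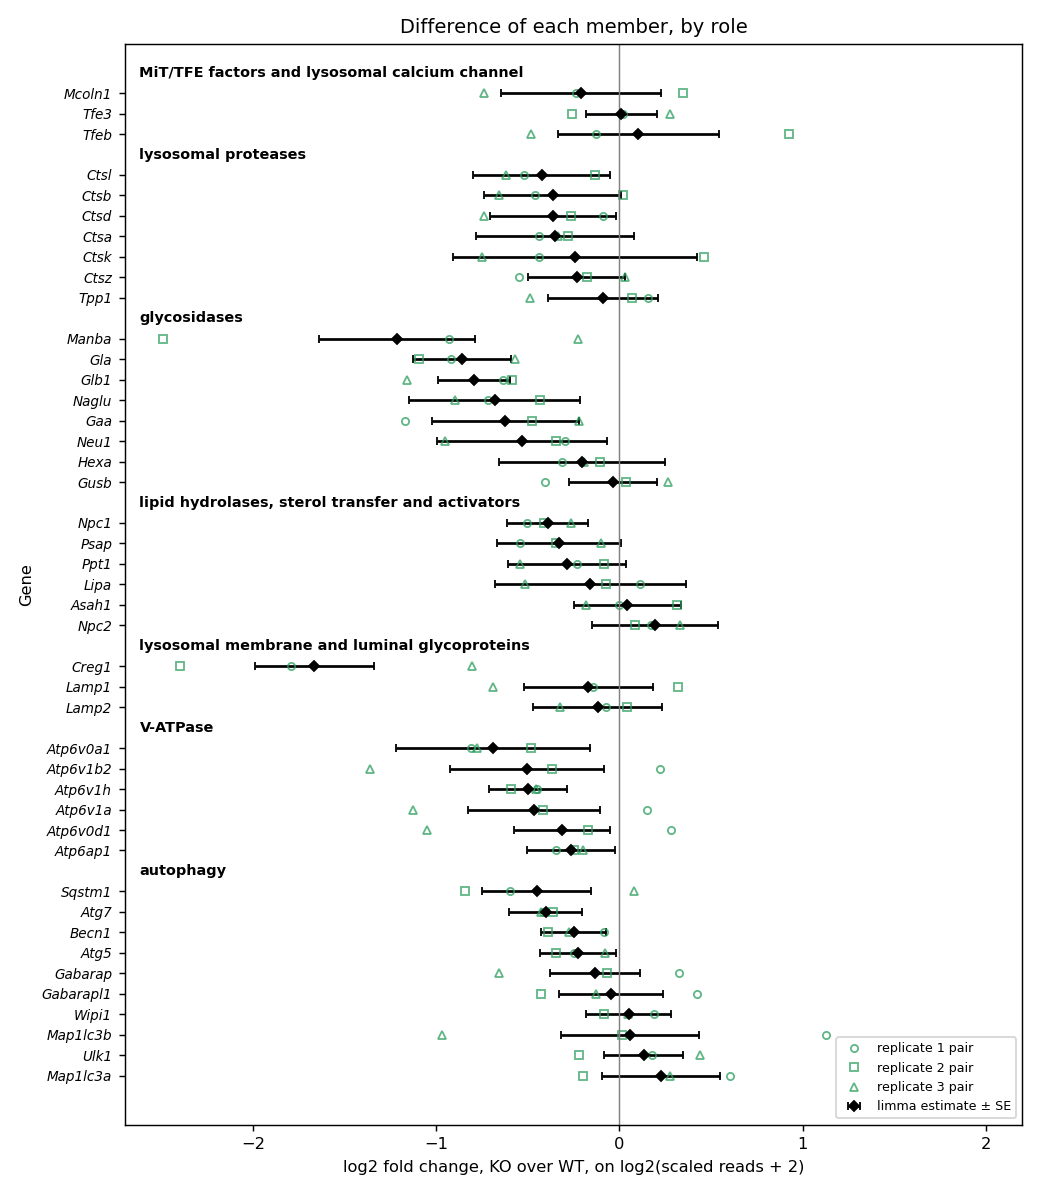
Log2 fold change, KO over WT, of each of the 43 members on the x axis, grouped by role on the y axis; diamonds are limma estimates with 1 SE and open symbols are the same-numbered pairs 1 to 3. All 8 glycosidases and all 6 V-ATPase genes lie left of 0, and Creg1 lies farthest left at -1.67.

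No member passed an adjusted p of 0.05 in limma, and neither did any of the 12363 genes (0.0%), with the smallest adjusted p at 0.274. At an unadjusted p under 0.05, 4 members were lower (9.30%) where 2.15% of all genes were, and 0 were higher where 1.46% of all genes were. With the replicate block, which compares same-numbered cultures, 9 members were lower at that level (20.9%) where 4.25% of all genes were, and 0 were higher against 3.17%. The 9 were Creg1, Gla, Glb1, Naglu, Manba, Gaa, Neu1, Atp6v0a1 and Atp6v1h, none with an adjusted p below 0.373. Complete separation of the KO from the WT libraries was found for 7 members, all lower in KO (16.3%), where 4.51% of all genes were apart in that direction and 3.91% in the other. Single libraries moved these figures. Without WT replicate 2 the 4 became 2, where 1.45% of all genes were lower at that level. Without WT replicate 3 the 7 became 14, but fewer libraries part more easily. The share of all genes apart is not given for that setting. The median of the members ran from -0.47 without WT replicate 3 to -0.11 without KO replicate 3. In the authors' deposited table, 65 of 12389 genes (0.525%) were past a false discovery rate (FDR) of 0.05, and Creg1 was the member among them.

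Creg1 encodes a secreted and lysosomal glycoprotein first described as a repressor of E1A-activated transcription, and it differed more than any other member. It had 4655, 4622 and 2410 scaled reads in WT against 1342, 874 and 1381 in KO. Every KO culture was below the lowest WT culture, WT replicate 3. The means were 3896 ± 1287 for WT and 1199 ± 282 for KO (SD, n = 3 per genotype). The log2 fold change was -1.67 (SE 0.33), with an unadjusted limma p of 0.00132 and an adjusted p of 0.996. An exact two-sided permutation test over the libraries gave 0.1, the smallest value that 3 against 3 allow, as it does for each gene without overlap. In the authors' deposited table Creg1 had a log2 ratio of -1.70 at an FDR of 0.00196. Under library quality weights, whose estimate stopped short of its tolerance, the limma adjusted p was 0.0295, and it was 0.104 with those weights and the replicate block together. Over the libraries left out in turn the adjusted p was 0.48 or more. Creg1 (ENSMUSG00000040713) spans chromosome 1, 165763746 to 165775308, on the plus strand of GRCm38. Its promoter window, plus strand, holds no CACGTG, and is printed whole because it belongs to the member that differed most:
Creg1, chr1:165763508-165763807: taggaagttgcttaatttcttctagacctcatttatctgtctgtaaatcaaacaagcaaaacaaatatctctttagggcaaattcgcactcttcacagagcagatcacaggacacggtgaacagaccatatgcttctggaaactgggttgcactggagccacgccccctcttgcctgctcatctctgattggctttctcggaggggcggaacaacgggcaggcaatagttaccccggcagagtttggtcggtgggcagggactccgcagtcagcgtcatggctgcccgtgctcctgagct

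**Figure D2:**
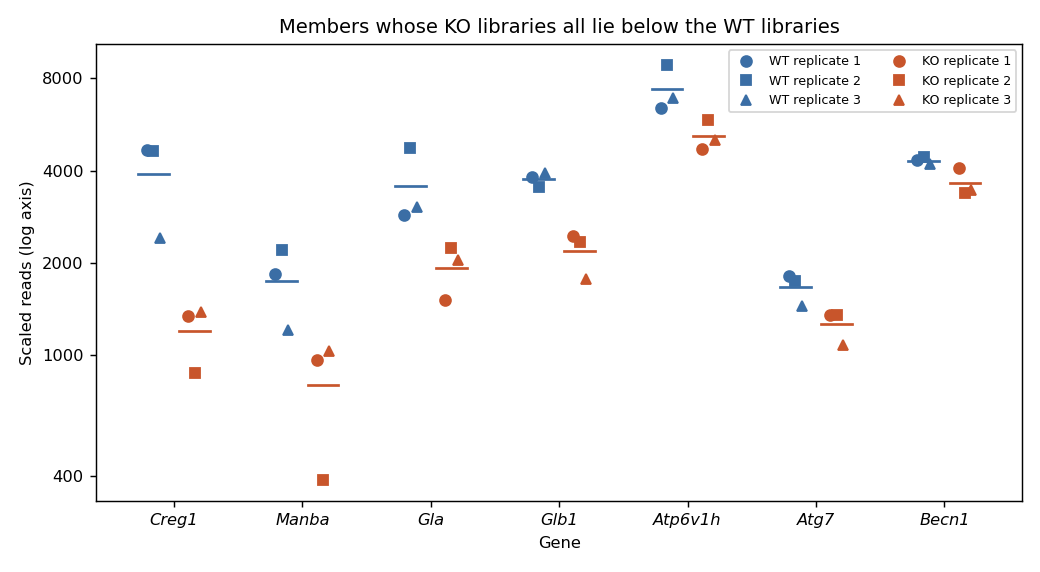
Scaled reads (log y axis) of the 7 members whose KO libraries all lie below their WT libraries; symbols mark the replicate number, colour the genotype and bars the group means. The gap is widest for Creg1, at 1381 in the highest KO and 2410 in the lowest WT library, and narrowest for Becn1.

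The glycosidases, exoglycosidases that remove sugars one by one from glycans, were below 0 for 8 of 8 members, with a median log2 fold change of -0.65. Of these, 3 were lower at an unadjusted limma p under 0.05 without the block, where 2.15% of all genes were. With the block 6 were lower at that level, where 4.25% of all genes were. The glycosidases had the lowest median of the role groups, so these counts describe the group that stood out in the same data. The medians by pair were -0.68, -0.46 and -0.40. Their summed level was 86667, 52355 and 39579 scaled reads in WT against 49568, 38670 and 31022 in KO. The 2 groups overlapped, because WT replicate 3 lay below KO replicate 1, while each KO culture lay below the WT culture of its number.

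Glb1, the acid beta-galactosidase behind the stain used for senescent cells, had 3796, 3522 and 3937 scaled reads in WT. In KO it had 2442, 2342 and 1763. The WT cultures lay within a narrow band and all 3 KO cultures were well under it. Its log2 fold change was -0.79 (SE 0.20), with an unadjusted limma p of 0.00498 and an adjusted p of 0.999. That unadjusted p stayed between 0.009 and 0.0151 over the 6 libraries left out in turn. In the authors' deposited table the FDR of Glb1 was 0.104. Exons of Glb1 (chromosome 9, 114401076 to 114474898, plus strand) share 165 bases with Tmppe on the same strand, so reads there are uncertain.

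Gla, alpha-galactosidase A, which removes galactose from globotriaosylceramide, had 2864, 4755 and 3029 scaled reads in WT. Its KO values were 1514, 2229 and 2037 in the same order, each below the lowest WT value. The log2 fold change was -0.86 (SE 0.27), with an unadjusted limma p of 0.0144 and an adjusted p of 0.999. The unadjusted p exceeded 0.05 without KO replicate 1 (0.0529) or WT replicate 2 (0.0507). The Gla window holds TCACGTGA at 2 places, 227 and 194 bases before the start, and both can be read in the full sequence on the minus strand:
Gla, chrX:134600956-134601255: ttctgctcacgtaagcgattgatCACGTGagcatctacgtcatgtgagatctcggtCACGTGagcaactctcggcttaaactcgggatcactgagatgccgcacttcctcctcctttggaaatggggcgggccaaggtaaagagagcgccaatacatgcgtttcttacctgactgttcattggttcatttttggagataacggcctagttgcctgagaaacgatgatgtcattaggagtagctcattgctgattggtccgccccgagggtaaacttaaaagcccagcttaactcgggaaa

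Manba, the beta-mannosidase of N-glycan breakdown, had 1830, 2198 and 1206 scaled reads in WT against 960.5, 389.5 and 1032 in KO. The groups were apart, narrowly so between WT replicate 3 and KO replicate 3. Its log2 fold change was -1.21 (SE 0.42), with an unadjusted limma p of 0.0239 and an adjusted p of 0.999. KO replicate 2 carried much of this, and without it the log2 fold change was -0.77 with an unadjusted p of 0.0504. The unadjusted p also exceeded 0.05 without WT replicate 1 (0.0651) or WT replicate 2 (0.0807). Manba spans chromosome 3, 135485611 to 135571404, on the plus strand, and its promoter window holds no CACGTG. The span of Gla is chromosome X, 134588149 to 134601125, on the minus strand.

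The next glycosidases by size of difference had overlapping groups. Naglu, which acts on heparan sulfate, had 6561, 4132 and 2688 scaled reads in WT against 3995, 3058 and 1442 in KO. Each KO culture was below the WT culture of its number, with log2 differences of -0.72, -0.43 and -0.90. The unadjusted limma p was 0.186, and it was 0.00907 with the replicate block. Over the libraries left out in turn, without the block, it ran from 0.0808 to 0.542. Gaa, the acid alpha-glucosidase that degrades lysosomal glycogen, had 46440, 20465 and 17233 scaled reads in WT against 20648, 14694 and 14791 in KO. WT replicate 1 stood well above all other cultures, and without it the log2 fold change of Gaa went from -0.62 (SE 0.40) to -0.19. Neu1, the sialidase, had 6552, 3696 and 3247 scaled reads in WT against 5323, 2910 and 1676 in KO. Its log2 fold change was -0.53 (SE 0.46), with an unadjusted limma p of 0.288, or 0.0396 with the block and 0.0498 without KO replicate 1. Without KO replicate 3 the log2 fold change of Neu1 was -0.12, with an unadjusted limma p of 0.774. The remaining 2 glycosidases differed least, with log2 fold changes of -0.20 (SE 0.45) for Hexa, a subunit of beta-hexosaminidase, and -0.04 (SE 0.24) for Gusb, the beta-glucuronidase.

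The proteases comprised 7 cathepsins and peptidases, all with a log2 fold change below 0 and a median of -0.35. None had an unadjusted p under 0.05 in either fit, and no protease had groups apart. Ctsd, the aspartic protease cathepsin D, had 70978, 80665 and 58042 scaled reads in WT against 66779, 67244 and 34827 in KO. KO replicate 3 was the low culture, and without it the log2 fold change of -0.36 (SE 0.34) became -0.05. Ctsb, a cysteine protease, had 47259, 65413 and 45022 scaled reads in WT against 34332, 66417 and 28576 in KO. Here KO replicate 2 was above every WT culture, and the log2 fold change of -0.37 (SE 0.37) ran from -0.73 to -0.12 with a library left out. Ctsz, a carboxypeptidase, had 19046, 11449 and 12217 scaled reads in WT against 13033, 10113 and 12454 in KO. WT replicate 1 was the high culture for Ctsz, whose log2 fold change of -0.23 (SE 0.27) was 0.00 without it. Values for the other 4 were -0.43 (SE 0.37) for Ctsl, -0.35 (SE 0.43) for Ctsa, the protective protein of NEU1, -0.24 (SE 0.67) for the collagen-degrading Ctsk and -0.09 (SE 0.30) for Tpp1.

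For the 6 genes of lipid hydrolysis and sterol export the median was -0.22 on the log2 scale, with 4 below 0. None had an unadjusted p under 0.05, with or without the block. Psap, the precursor of the saposins that present lipids to hydrolases, had 98860, 95819 and 54101 scaled reads in WT. In KO it had 67874, 75298 and 50356. Both replicate 3 cultures were low, and each KO culture was below its same-numbered WT culture. Psap had a log2 fold change of -0.33 (SE 0.34). The genes of the 2 proteins that hand cholesterol out of the lysosome went opposite ways, with -0.39 (SE 0.22) for Npc1 and 0.19 (SE 0.34) for Npc2. Lipa, the acid lipase, had -0.16 (SE 0.52), the thioesterase gene Ppt1 -0.29 (SE 0.32) and the acid ceramidase gene Asah1 0.04 (SE 0.29).

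The other glycoprotein genes encode the major proteins of the lysosomal membrane, and their groups overlapped. Lamp1 had 58580, 55981 and 48767 scaled reads in WT against 53096, 69881 and 30246 in KO. The KO cultures thus spanned the WT range on both sides. The log2 fold change of Lamp1 was -0.17 (SE 0.35), and it was 0.17 without KO replicate 3. Lamp2 had -0.12 (SE 0.35).

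The V-ATPase has a membrane sector that carries protons and a cytoplasmic sector that splits ATP, and all 6 subunit genes were below 0, with a median log2 fold change of -0.48. The medians by pair were -0.10, -0.39 and -0.91, so the same-numbered cultures 3 differed most. Summed over the 6 genes, the WT cultures had 51323, 57714 and 46103 scaled reads and the KO cultures 43730, 44556 and 27777, in the order of replicates. All 3 KO sums were below all 3 WT sums.

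Atp6v1h, the regulatory H subunit of the cytoplasmic sector, was apart between groups, with 6392, 8865 and 6894 scaled reads in WT. In KO there were 4685, 5871 and 5037. The log2 fold change was -0.50 (SE 0.21), nearly equal in the 3 pairs at -0.45, -0.59 and -0.45. Atp6v1h spans chromosome 1, 5070018 to 5162529, on the plus strand. The unadjusted limma p was 0.0508, or 0.0255 with the replicate block. With a library left out it ran from 0.0426 without WT replicate 1 to 0.181 without WT replicate 2. Atp6v0a1, the a1 subunit of the proton path, had 11368, 6020 and 3702 scaled reads in WT against 6471, 4303 and 2161 in KO. Groups overlapped, yet each KO culture was below its same-numbered WT culture, and the unadjusted limma p of 0.235 became 0.00766 with the block. Over the libraries left out in turn, without the block, that p ran from 0.0869 to 0.615. The log2 fold change of Atp6v0a1 was -0.69 (SE 0.53). For Atp6v1b2 and Atp6v1a, whose products form the ATP-splitting head, it was -0.50 (SE 0.42) and -0.47 (SE 0.36), for Atp6v0d1 -0.31 (SE 0.26) and for the accessory subunit Atp6ap1 -0.26 (SE 0.24). Atp6v1b2, Atp6v1a and Atp6v0d1 were higher in KO in pair 1, while pair 3 gave log2 differences of -1.36, -1.13 and -1.05.

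Among the autophagy genes, Atg7 and Becn1 had groups apart, both lower in KO (20.0%, where 4.51% of all genes were apart and lower). Genes of the LC3 and GABARAP family lay on both sides of 0. Of the 10 members, 6 were below 0, the median was -0.09, and none had an unadjusted p under 0.05 in either fit. Atg7, the E1-like enzyme that activates LC3 and ATG12, had 1804, 1736 and 1444 scaled reads in WT against 1351, 1350 and 1074 in KO. Its log2 fold change was -0.40 (SE 0.20), and by pair it was -0.42, -0.36 and -0.43. Becn1, a subunit of the lipid kinase complex that starts the autophagosome membrane, had 4332, 4414 and 4187 scaled reads in WT against 4086, 3366 and 3460 in KO. The gap for Becn1 was narrow, between WT replicate 3 and KO replicate 1, and the log2 fold change was -0.25 (SE 0.18). Becn1 shares 3104 exon bases with Cntd1 on the opposite strand, and no source used here says whether counting used strand. Exons shared with a gene on the opposite strand were also found for Ctsb (774 bases, Fdft1), Sqstm1 (580 bases, Mrnip), Lamp1 (249 bases, Grtp1) and Atp6v1h (127 bases, Rgs20), and Ctsd shares 808 bases with Gm49369 on its own strand. On GRCm38, Atg7 spans chromosome 6, 114643097 to 114860614, on the plus strand, and Becn1 spans chromosome 11, 101285952 to 101302286, on the minus strand.

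Sqstm1, which encodes the ubiquitin-binding cargo receptor p62, had 52816, 51740 and 30189 scaled reads in WT. In KO it had 34946, 28878 and 31955. WT replicates 1 and 2 were above all other cultures, and WT replicate 3 lay among the KO cultures. Its log2 fold change was -0.45 (SE 0.30). With WT replicate 3 left out it was -0.72, with an unadjusted limma p of 0.0248. That p was 0.17 with all libraries and 0.386 without WT replicate 2. The remaining autophagy members had log2 fold changes of -0.23 (SE 0.21) for Atg5, -0.13 (SE 0.25) for Gabarap and -0.05 (SE 0.28) for Gabarapl1. Above 0 were Map1lc3a at 0.23 (SE 0.32), the initiating kinase gene Ulk1 at 0.13 (SE 0.22), Map1lc3b at 0.06 (SE 0.38) and the phosphoinositide-binding Wipi1 at 0.05 (SE 0.23). Map1lc3b went from 1.13 in pair 1 to -0.97 in pair 3.

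The transcription factors and the lysosomal calcium channel showed no common direction. Tfeb had 688, 365 and 375 scaled reads in WT against 629, 695 and 268 in KO. KO replicate 2 was the highest of the 6 cultures and KO replicate 3 the lowest, and the log2 fold change was 0.10 (SE 0.44). Under library quality weights Tfeb had 0.68, with an unadjusted limma p of 0.0374 and an adjusted p of 0.243. Tfe3 had 2843, 3348 and 3020 scaled reads in WT against 2879, 2797 and 3652 in KO, a log2 fold change of 0.01 (SE 0.19). Mcoln1, the calcium channel whose opening activates TFEB through calcineurin, had 4427, 2912 and 2366 scaled reads in WT against 3753, 3709 and 1418 in KO. The groups overlapped, with a log2 fold change of -0.21 (SE 0.44). The sign of each of the 3 turned when some single libraries were left out. Transcript levels do not measure the nuclear amount or activity of TFEB and TFE3.

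Members differed far more among themselves than between genotypes. Per kb of exon, the mean over all 6 cultures was 26865 scaled reads for Psap, 26835 for Ctsd, 19723 for Lamp1, 11448 for Sqstm1, 9058 for Ctsz and 7906 for Ctsb. At the other end, Tfeb had 88.8 per kb, Manba 182 and Atg7 210. Psap and Ctsd did not differ beyond their spread. By group mean, Creg1 had 1649 per kb in WT and 508 in KO, and Manba had 250 and 114. The other factor, Tfe3, had 334 per kb over all cultures. All members together took 1.75%, 1.88% and 1.35% of all scaled reads in WT and 1.45%, 1.64% and 1.08% in KO.

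**Figure D3:**
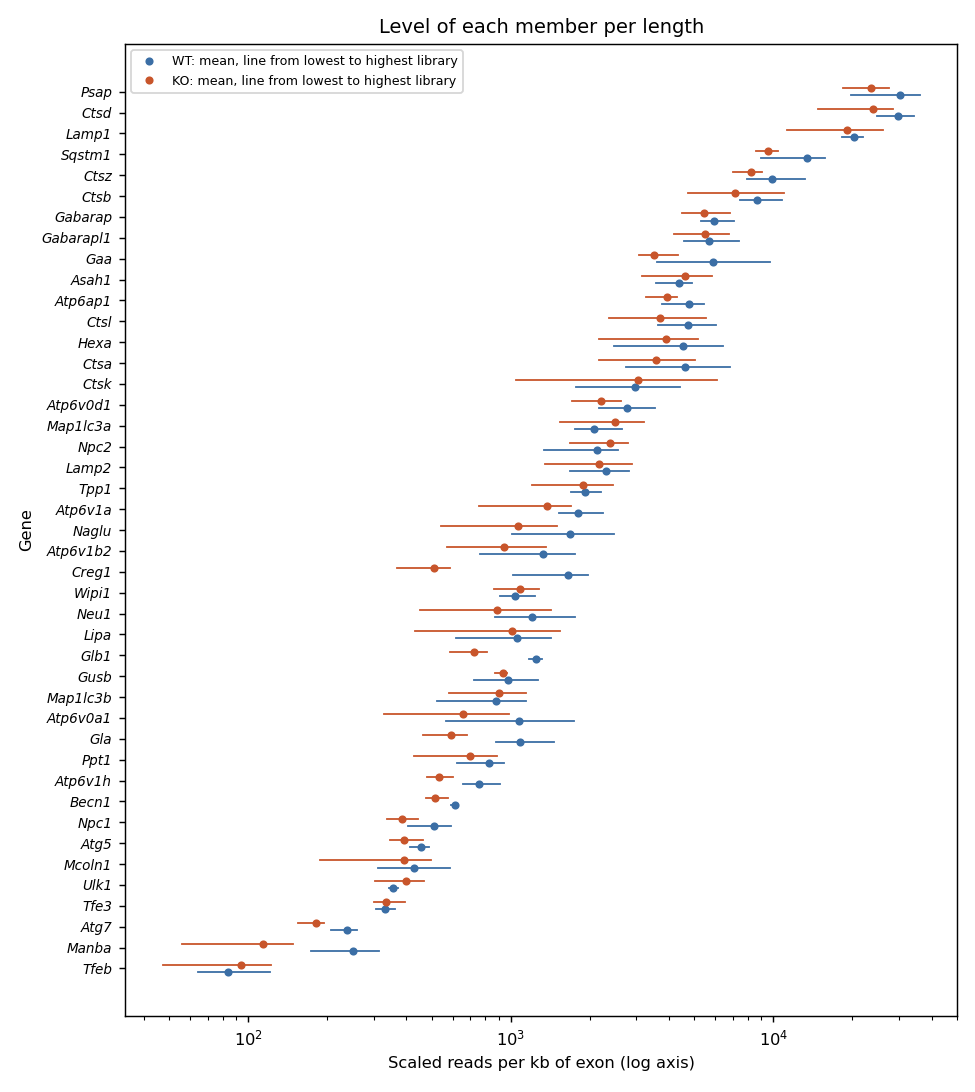
Scaled reads per kb of exon (log x axis) of the 43 members, ordered by their mean over all cultures; points are group means and lines run from the lowest to the highest of 3 libraries. Psap and Ctsd lead at 26865 and 26835 and Tfeb is lowest at 88.8, and the WT and KO lines are apart for 7 members, Creg1, Glb1, Gla, Manba, Atp6v1h, Atg7 and Becn1.

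The replicate number moved with many members. In both genotypes replicate 3 had the lowest value for 23 of 43 members (53.5%), where 22.0% of all genes did so. This held for 6 of 7 proteases and 6 of 6 lipid genes, against 2 of 10 autophagy genes. The same replicates 3 had the highest summed smooth muscle markers. For replicates 1 and 2 of each genotype alone, a comparison added after the values were seen, 30 of 43 members were below 0 with a median log2 fold change of -0.19. The part of the marker levels in the members' values was not tested.

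Markers of other cell types were also compared, since lysosomal genes are high in macrophages. Of 12 macrophage and leukocyte markers, only Csf1r, Cd14 and Lyz2 were measured, and Ptprc, Adgre1 and 7 others were not analysed here. Their sum was 1953 to 2361 scaled reads in the WT cultures and 751 to 1618 in the KO cultures, without overlap, and all 3 had a log2 fold change below 0. Lyz2, the macrophage lysozyme, had 483, 300 and 693 scaled reads in WT against 97.3, 269 and 240 in KO, and it alone had groups apart. Csf1r had 587, 720 and 859 in WT against 212, 441 and 899 in KO. Cd14 had 1292, 1291 and 401 in WT against 442, 496 and 479 in KO. The medians of these markers by pair were -1.54, -0.70 and 0.07. In pair 3 the markers were split, with Lyz2 lower in KO at -1.52 and Csf1r and Cd14 above 0 at 0.07 and 0.255. Their sum in replicate 3 was 1953 in WT against 1618 in KO. The 6 measured mesothelial and epithelial markers summed to 6263 to 19995 in WT and 1127 to 9388 in KO. Of the 6, 5 were below 0, with a median log2 fold change of -1.96, and Krt19 was above 0 at 1.16. Medians of this list by pair were -1.65, 0.01 and -3.45. The 6 fibroblast markers summed to 18119 to 65470 in WT and 21035 to 58537 in KO, with 4 of 6 below 0. Their medians by pair were 0.09, 0.56 and -2.51, and single markers in pair 3 moved far in opposite ways. In replicate 3, Dcn had 12661 in WT against 1362 in KO, and Lum 3064 against 5.69. There Pdgfra had 729 against 15182 and Col14a1 108 against 4166. Of 7 endothelial markers Kdr was measured, at 42.7 to 433 in WT and 21.4 to 423 in KO. The part of these other cells in the members' differences was not tested, and in bulk RNA fewer cells of a type and less RNA per cell cannot be told apart.

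Other genes of the pathway, 132 in 5 lists, had medians below 0 as well, and none passed an adjusted p of 0.05 in limma. Of 37 further lysosomal hydrolases and cofactors 31 were below 0, with a median log2 fold change of -0.18. None had an unadjusted limma p under 0.05 without the replicate block. With it 4 did, all lower in KO (10.8%), where 4.25% of all genes were lower. They were Ctsh (0.00903), Lgmn (0.015), Fuca1 (0.0259) and Sgsh (0.0321). Ctsh and Sgsh lie outside the rule for named genes and were chosen after their values were seen. Among them the asparaginyl protease gene Lgmn had -0.72 (SE 0.32) and the fucosidase gene Fuca1 -0.50 (SE 0.23). Of 23 membrane proteins, transporters and sorting receptors 20 were below 0, with a median of -0.18. None had an unadjusted limma p under 0.05 without the block, and 2 did with it, Ostm1 (0.007) and Slc36a1 (0.0173). Both were lower in KO, or 8.70% of the list where 4.25% of all genes were lower. The lowest p in that list belonged to Ostm1, the partner of the chloride-proton exchanger ClC-7, at -0.67 (SE 0.31). Slc36a1 and Litaf followed at -0.59 (SE 0.28) and -0.35 (SE 0.21).

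The other V-ATPase genes lay mostly below 0, as the 6 subunits described above did in the same libraries. Of 15, 14 were below 0 (93.3%, where 49.6% of all genes were), with a median of -0.27. The medians by pair were -0.01, -0.25 and -0.40, and 5 genes were lower in all 3 pairs. Groups were apart for 3, all lower in KO (20.0%), where 4.51% of all genes were apart and lower. The assembly factor gene Tmem199 had 1385, 1193 and 1135 scaled reads in WT against 957, 623 and 824 in KO. Its unadjusted limma p was 0.0261, with a log2 fold change of -0.64 (SE 0.23). This was the only p in that list under 0.05 (6.67%), where 2.15% of all genes were lower at that level. The subunit genes Atp6v1c1 and Atp6v1e1 had -0.42 (SE 0.20) and -0.30 (SE 0.20). Of 38 other autophagy genes 34 were below 0, with a median of -0.14 and none at an unadjusted p under 0.05 in either fit. There the cargo receptor gene Nbr1 had -0.40 (SE 0.20), Atg16l1 -0.46 (SE 0.27) and Snap29 -0.33 (SE 0.24).

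Among 19 genes of the wider MiT factor family and of lysosomal mTORC1 signalling, 13 were below 0 with a median of -0.12. Rragd, a GTPase that recruits mTORC1 to the lysosome and is itself a known TFEB target, had 1752, 825 and 912 scaled reads in WT. In KO it had 565, 681 and 259, each below the lowest WT value. Rragd had a log2 fold change of -1.24 (SE 0.45), with an unadjusted limma p of 0.0271 and an adjusted p of 0.999. It was the only gene of that list with an unadjusted limma p under 0.05 (5.26%), where 2.15% of all genes were lower at that level. Mitf, a relative of TFEB, had -0.84 (SE 0.42), and the folliculin partner gene Fnip1 had -0.40 (SE 0.23).

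**Figure D4:**
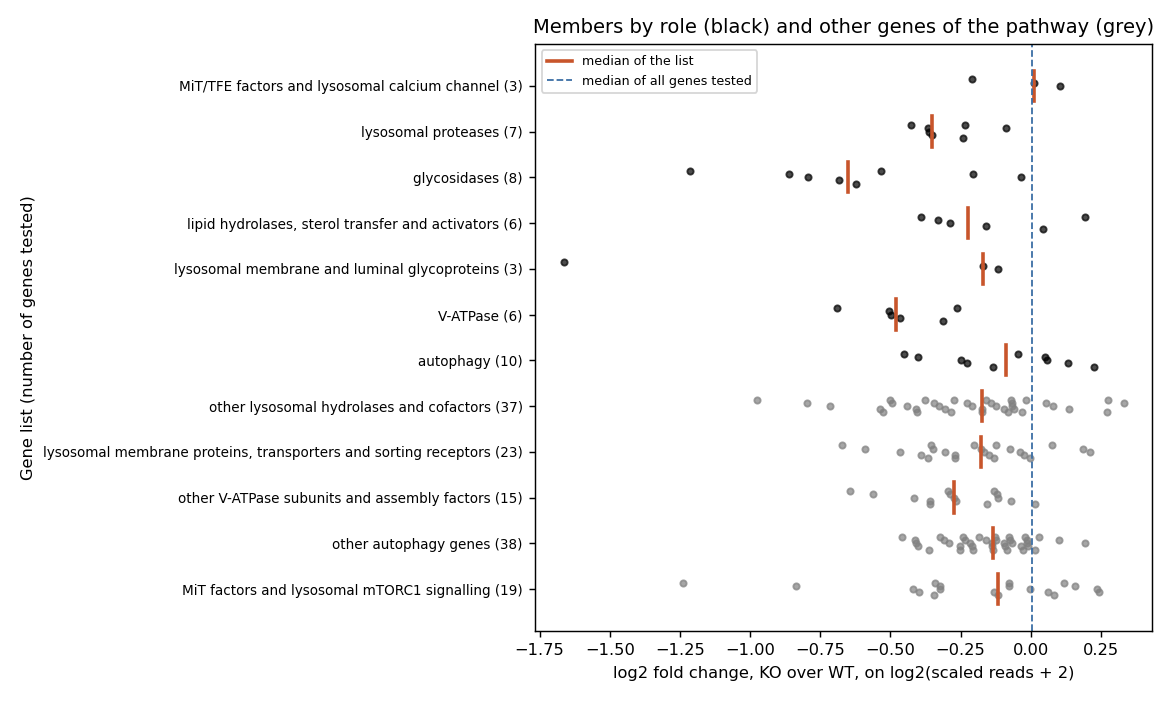
Log2 fold change, KO over WT (x axis), of every tested gene in the 7 role groups of members (black) and the 5 lists of other pathway genes (grey), 1 point per gene; vertical bars are list medians and the dashed line the median of all genes. The glycosidases have the lowest median at -0.65, and the group of Tfeb, Tfe3 and Mcoln1 lies at 0.01.

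The 13 members with CACGTG in the promoter window, those printed first among them, had -0.40 as their median log2 fold change, and all 13 were below 0. The signs of Mcoln1 and Lamp1 turned in some other settings, and those of the members without values by culture were not followed over the settings. The 23 with a window lacking these letters had a median of -0.16, and 17 were below 0. Groups were apart for 3 of the 13, Gla, Glb1 and Atg7, and for 2 of the 23, Creg1 and Manba. The window of Atg7 lies inside its gene. Of all genes, 4.51% were apart and lower. For the longer form TCACGTGA, the median was -0.36 in the 6 members with it and -0.23 in the 30 without. Below 0 were all 6 of the former and 24 of the latter. Groups were apart for 1 of the 6 and 4 of the 30. These differences were not tested.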

How the data were processed

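RNA libraries from 6 cultures were stranded, poly(A)-selected and read as paired ends, per the labels' protocols. Per the submitters' processing notes, the tools were STAR, DESeq2 and Partek, with builds mm39 and GRCm39, and no roles are stated. The deposited per-library tables hold a scaled signal, not whole counts, although 1 is named raw counts. Depth was estimated from the value of 1 read in each library (0.712 to 1.19), since 82.9% to 92.4% of low values lay within 0.05 reads of a whole number. Deposited gene starts equal those of GENCODE M21 (GRCm38) for 12341 of 12385 genes, so coordinates are given as GRCm38. The authors' table, per the file headers, gives a p-value, an FDR and a log2 ratio for KO over WT.

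Differences were fitted with limma 3.58.1 (R 4.3.3, statmod 1.5.0) on log2(value + 2) for 12363 genes with at least 10 in at least 3 libraries, with trended, robust variances, two-sided tests and Benjamini-Hochberg adjustment over all genes. The fit was tested on simulated data. Precision rests on the spread between cultures (median residual SD 0.36 on the log2 scale). Deviations from the group means correlated between same-numbered cultures (0.42, 0.15 and 0.39), so these were treated as pairs in the replicate block. What a number marks is not stated in the labels. Per-kb levels use the union of GENCODE M21 exons.

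The members and lists were chosen with earlier results of these data known. Values by culture are given for Tfeb, Tfe3 and Mcoln1, for members without overlap or with an unadjusted p under 0.05, for the 8 largest differences and for the 6 highest levels per kb. Of each other pathway list, the 3 genes with the smallest p are named, except 1 that is not reported here. Alternatives were other scalings, filters, pseudocounts and variance priors, the second deposited table, weights for library quality, a replicate block, and each library left out in turn. Replicates 1 and 2 alone, and weights with the block, were added after the values were seen.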

Additional observations from a re-analysis of the deposited data

How the results depend on the processing

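Scaling, filters, pseudocounts, variance priors and the second deposited table left all counts of members within 1.5 times, and the number below 0 was 27 to 38 of 43 over the 19 other settings. Library quality weights gave 24 genes lower and 6 higher past an adjusted p of 0.05. At an unadjusted p under 0.05, they gave 10 members lower and 1 higher. Of all 12363 genes, 2284 passed that unadjusted level in either direction, and 10.4% were lower (2.15% without weights). The weights ranged from 0.361 to 7.985, and their estimate stopped short of its tolerance. The replicate block gave 9 members lower at that level, and with the weights 12 members, where 7.39% of all genes were lower, with 4 genes lower and 1 higher past adjustment. Leaving out a library gave 0 to 1 genes lower past adjustment and medians of the members from -0.466 to -0.11. It gave 2 to 6 members lower at an unadjusted limma p under 0.05, where 1.45% to 3.14% of all genes were lower. Of the members, 7 to 14 were then apart and lower and 0 to 2 apart and higher. The shares of all genes apart are not given for these settings. Replicates 1 and 2 alone gave 15 members apart and lower and 2 higher. Fewer libraries part more easily, and the share of all genes apart is not given there either, so these counts cannot be weighed. Of the 20 members with values by culture, 4 turned sign in some settings; the other 23 were followed only through the number below 0. Leaving out a library gave -0.148 to 0.537 for Tfeb, -0.11 to 0.082 for Tfe3, -0.446 to 0.256 for Mcoln1 and -0.438 to 0.166 for Lamp1. With weights Tfeb, the 1 higher member, had 0.679, Tfe3 -0.185, Mcoln1 0.18 and Lamp1 0.077, in that order with weights and block 0.474, -0.118, 0.055 and 0.067, and with replicates 1 and 2 alone 0.398, -0.12, 0.055 and 0.089. The cause was not tested. Each library held an estimated 31.01 M reads or more, and the tests rest on the spread between cultures.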
